A study of Mus musculus with 26 samples.

Results

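Of 231567 chromatin regions that were accessible in at least 1 ATAC-seq library of C2C12 myotubes, 297 were called in every library of 2 different knockdowns and in no control library. The regions were found by merging the peaks of the 6 ATAC lists wherever they overlapped by at least 1 bp on chromosomes 1 to 19 and X. A region was kept when both siDRR lists and both siSmc3 lists had a peak in it and neither control list did. The regions were thus selected on the ATAC calls themselves, so their ATAC peaks are described without a test, while SMC3 and ChIRP peaks took no part in the choice. They made up 0.128% of all merged regions, and each is given by its mm9 position, with no gene named, because gene models of that build were not used here.

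C2C12 is a mouse myoblast line that grows in 20% fetal bovine serum and fuses into myotubes when moved to 2% horse serum with insulin, transferrin and selenium. For ATAC-seq, myotubes had been transfected by RNAiMAX with control siRNA, with siDRR against the DRR enhancer RNA, or with siSmc3 against Smc3. SMC3 was mapped by ChIP-seq in myoblasts, in myotubes and in myotubes given siDRR, and the labels name no transfection for the first 2 of these groups. DRR RNA was mapped by ChIRP-seq, which pulls down chromatin with tiled probes against an RNA, in myotubes with probe pool 1 and with probe pool 2. Each of these 8 groups had 2 libraries, which gave 16 peak lists among 26 samples; inputs and LacZ ChIRP were not analysed here. The labels do not say whether the libraries of a group came from separate cultures, so p-values measure only a spread that could be technical, and all cells are of 1 established line under transient knockdown.

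ATAC-seq uses the Tn5 transposase, which inserts sequencing adapters where DNA is not shielded by nucleosomes, so a peak marks an open stretch such as an enhancer or a promoter. SMC3 is a core subunit of cohesin, the ring complex that holds sister chromatids together, extrudes chromatin loops and often sits at CTCF sites and at active enhancers. DRR, the distal regulatory region, is an enhancer upstream of Myod1, which encodes a master transcription factor of the muscle lineage, and the DRR enhancer RNA is transcribed from it. The study asked how this RNA relates to cohesin binding and to transcription away from its own locus. Regions gained in both knockdowns are places where siRNA against the RNA and siRNA against the cohesin subunit each went with an ATAC call that the controls lacked.

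The lists differed in length. The control lists held 58138 and 99548 ATAC peaks, the siDRR lists 69841 and 98592, and the siSmc3 lists 80897 and 103056. For SMC3 the lengths were 30955 and 33154 (myoblasts), 15056 and 26765 (myotubes) and 8384 and 23196 (siDRR myotubes). In each of these 6 groups library 2 had the longer list. Read depth is unknown from these files, so a peak that is absent from a list may lie under the caller's threshold, and a gained region is a new call rather than a measured rise in signal.

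The gained regions had median ranks near the middle of the lists that called them. Strength is given as the rank percentile of the region's best peak within its own list, where 100 is the best score. In siDRR library 1 the percentile ran from 0.570 to 86.2 with a median of 43.2, and in siDRR library 2 from 1.25 to 88.3 with a median of 46.2. In siSmc3 library 1 it ran from 0.435 to 93.4 with a median of 52.0, and in siSmc3 library 2 from 0.690 to 89.9 with a median of 50.7. The median caller scores behind these ranks were 41.4, 61.6, 42.1 and 77.2, on lists that all start at a score of 30. Regions called in all 6 ATAC lists, of which there were 22555, ranked far higher, with medians between 78.6 and 87.8. All merged regions ranked lower: averaged over the knockdown lists that called a region, the median percentile was 36.7, against 45.6 for the gained regions. It was 29.7 for regions gained only under siDRR and 36.6 for those gained only under siSmc3.

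**Figure D1:**
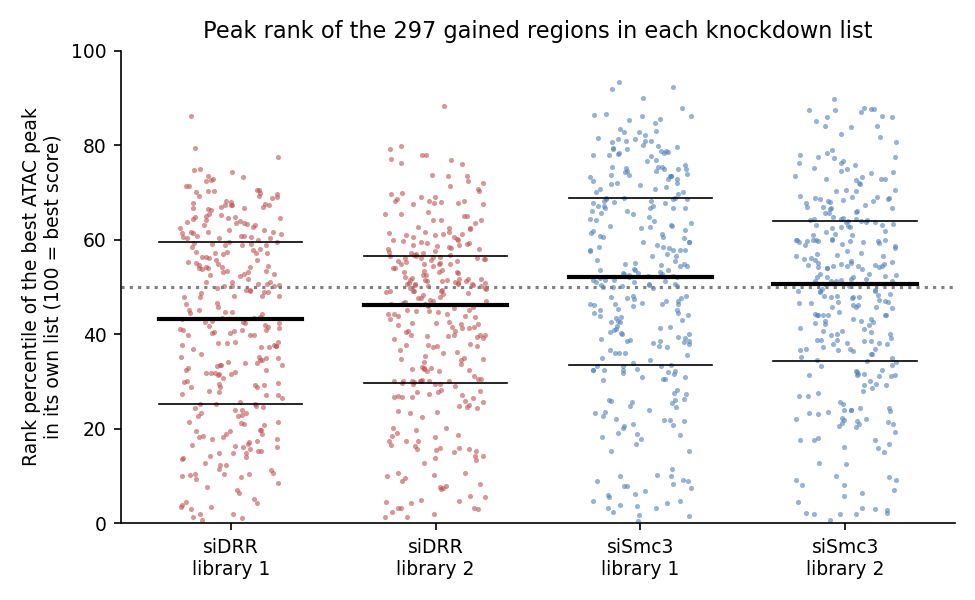
Rank percentile of the best ATAC peak of each of the 297 gained regions (1 point per region) in each of the 4 knockdown lists. Thick lines are medians (43.2, 46.2, 52.0 and 50.7), thin lines are quartiles and the dotted line is the middle of a list; points spread over nearly the whole range in each library.

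No gained region was in the top 25% of all 4 knockdown lists, and 25 were above the middle of all 4. In the weakest 25% of at least 1 list were 172, and in the weakest 10% of at least 1 list 73. With 4 lists a region has 4 ways to be counted there, so these counts do not show that the regions were weak. Taken singly, the weakest 25% held 72 and 56 of the 297 in the siDRR lists and 48 and 50 in the siSmc3 lists. Averaged over the 4 lists, the percentile had a median of 45.6, with quartiles of 36.9 and 53.9. The mean of the siSmc3 percentiles was above that of the siDRR percentiles at 193 regions (65.0%). The libraries of the knockdowns separated less often: both siSmc3 percentiles lay above both siDRR percentiles at 84 regions, and the reverse held at 38. These are ranks in lists of different lengths and show no difference in signal between the knockdowns. The same counts over all merged regions are not given here, so they show nothing particular to the gained regions.

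The choice of members turned largely on control library 2. With the calls of the 4 knockdown lists kept, 3625 regions also had a peak in control library 2 alone, whereas 89 had one in control library 1 alone. Without control library 2 the same rule gave 3930 regions, and without control library 1 it gave 383. On the knockdown side, 2304 regions were called in 3 of the 4 knockdown lists and in no control list. Of these, 1028 lacked only siDRR library 1 and 923 lacked only siSmc3 library 1, against 187 that lacked only siDRR library 2 and 166 that lacked only siSmc3 library 2. Leaving out siDRR library 1 or 2 gave 1322 or 480 regions, and leaving out siSmc3 library 1 or 2 gave 1221 or 461. When each list was reduced to its better-scoring 50%, only 24 of the 297 were still called gained, and when all lists were cut to the length of the shortest, 91 were. The median mean percentile of the regions that missed by control library 2 was 62.2, that of the regions that missed by control library 1 was 44.4, and that of the 3-list regions was 40.7, against 45.6 for the gained regions. Both knockdowns share their 2 control libraries. With these, 2457 regions (1.06% of all) were gained under siDRR and 3640 (1.57%) under siSmc3, and the 297 are 12.1% of the first set and 8.16% of the second. Regions called in both controls and in no knockdown list numbered 1202 (0.519%).

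The gained regions ran from 381 to 2518 bp in width with a median of 810 bp, against 488 bp for all merged regions, and 6 were 2000 bp or wider. At 281 regions each knockdown list contributed exactly 1 peak. The span of a list in a region was taken from its first peak start to its last peak end. The 4 spans had a stretch in common at 266 regions, with a median of 324 bp over all 297. At 31 regions the peaks were joined only through a chain of overlaps and shared no base. Another 16 regions, which may be among either of these, had 2 or more peaks in at least 1 list, so a span there can hold a gap. For width, the 1071 regions gained only under siDRR had a median of 586 bp, the 2128 gained only under siSmc3 one of 624 bp, the regions lost in both one of 656 bp and those called in all 6 lists one of 1511 bp.

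The nearest control peak lay at a median of 4239 bp from a gained region, with quartiles of 1214 and 7665 bp and a range from 11 to 496898 bp. The median was 3975 bp for regions gained only under siDRR and 4299 bp for those gained only under siSmc3. It lay within 500 bp at 41 regions, within 1000 bp at 67 and within 5000 bp at 178. At 55 regions (18.5%) no control peak lay within 10000 bp, compared with 21.8% of the regions gained only under siDRR and 23.9% of those gained only under siSmc3. Only 3 gained regions had no control peak within 50000 bp. The nearest region called in all 6 lists was at a median of 20306 bp, and 220 gained regions had one within 50000 bp. The corresponding medians were 24968 bp for regions gained only under siDRR, 24100 bp for those gained only under siSmc3 and 27263 bp for regions lost in both.

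The strongest gained region by mean rank was chr4:117330876-117332007. Its scores were 91.3 and 195 in the siDRR libraries and 141 and 406 in the siSmc3 libraries, at percentiles of 74.4, 76.0, 92.4 and 89.9. Both siSmc3 ranks lay above both siDRR ranks. The nearest peak was 17364 bp away in control library 1 and 4072 bp away in control library 2. It also carried SMC3 peaks in both myoblast libraries, at percentiles of 9.03 and 32.9, and in no myotube library of either kind.

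Next in rank came chr14:37705907-37706830, with percentiles of 69.0 and 77.0 under siDRR and 82.9 and 87.6 under siSmc3. It had no SMC3 peak in any library. The region chr14:45452597-45453519 had percentiles of 74.8 and 79.9 under siDRR and 85.5 and 71.8 under siSmc3, so the groups overlapped there. Its nearest peak in control library 1 was 311310 bp away, while control library 2 had one at 4953 bp, a difference between the controls in the same stretch of chromosome. At chr6:17887929-17889207 the siDRR percentiles were 69.8 and 59.0 and the siSmc3 percentiles 91.9 and 83.9, which do not overlap. The remaining regions of the 12 highest by mean rank were chr15:38797802-38799144, chr3:152018309-152018998, chr12:111783021-111783748, chr8:63788806-63789843, chr16:14303553-14304296, chr4:49519160-49520554, chr1:34242704-34243409 and chr10:18546504-18547398. Their mean percentiles ran from 74.8 down to 68.3. Among the 12, only the chromosome 12 region, like the first on chromosome 4, had an SMC3 peak in any library, in both myoblast lists at percentiles of 5.23 and 32.2. At chr4:49519160-49520554 no base was common to all 4 peaks. The library 1 peaks of siDRR and siSmc3 overlapped there, as did their library 2 peaks, but the 2 siDRR peaks did not overlap each other.

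The 3 lowest gained regions by mean rank had mean percentiles between 17.9 and 18.9. At chr8:12385007-12386268 the scores were 36.8 and 42.8 under siDRR and 31.2 and 30.2 under siSmc3, at percentiles of 31.9, 30.1, 8.84 and 0.690. At chr9:27024077-27024729 the percentiles were 16.1, 18.3, 39.2 and 1.84 in the same order of libraries, and at chr18:37308756-37309335 they were 13.9, 12.8, 27.5 and 21.6. None of these 3 regions had an SMC3 peak in any library.

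The gained regions were spread over all 20 chromosomes analysed. Chromosome 8 held 30 of them (10.1% of the gained regions, against 5.87% of all merged regions), which is 2.21 per 1000 merged regions with an exact binomial 95% interval of 1.49 to 3.15. Chromosome 4 followed with 26 regions (1.84 per 1000, 1.20 to 2.69). The lowest rate was on chromosome 18, with 4 regions (0.527 per 1000, 0.144 to 1.35). These intervals cover counting error only, and neither rate was tested across libraries. No 2 gained regions lay within 10000 bp of each other, and 8 pairs lay within 100000 bp. The closest pair was chr2:59360038-59360748 and chr2:59379311-59380592, 18562 bp apart. The fourth-ranked region on chromosome 6 had its neighbour chr6:17928215-17929332 at 39007 bp.

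**Figure D2:**
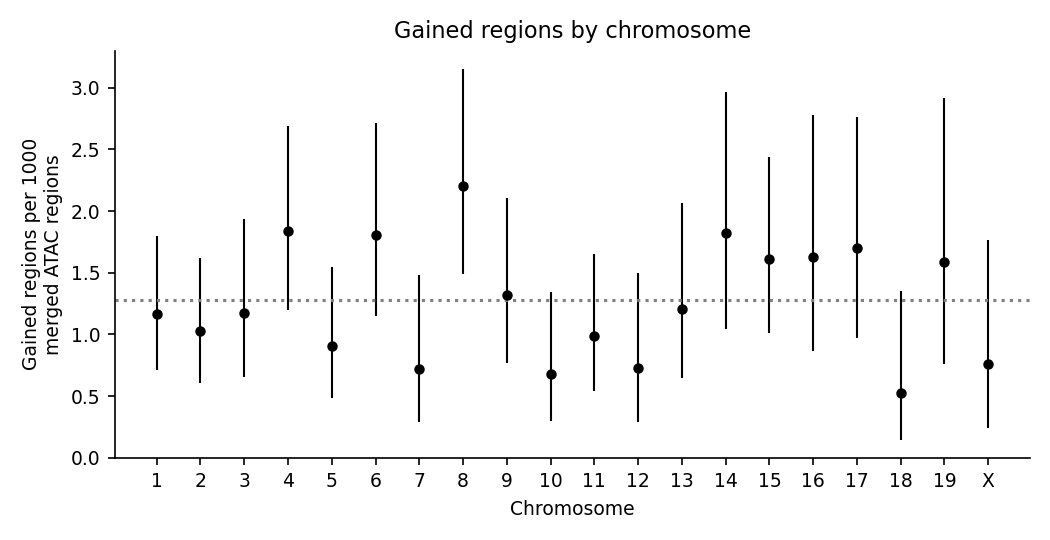
Gained regions per 1000 merged ATAC regions on each chromosome, with exact binomial 95% intervals as bars and the genome-wide rate as the dotted line. Chromosome 8 has the highest rate (2.21) and chromosome 18 the lowest (0.527), and most intervals include the genome-wide rate.

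SMC3 peaks lay at 10.8% to 32.7% of the gained regions, depending on the library, and in every library at a higher share than over all merged regions. In myoblasts the share was 31.3% in library 1 and 32.7% in library 2, where all merged regions gave 10.5% and 12.5%. In myotubes it was 18.9% and 26.9%, where all merged regions gave 5.58% and 10.1%. In siDRR myotubes it was 10.8% and 23.9%, where all merged regions gave 3.11% and 8.76%. The gained regions were thus 2.61 to 3.46 times as often at an SMC3 peak as all merged regions across the 6 libraries. SMC3 regions supported by both libraries overlapped 86 gained regions in myoblasts (29.0%, 95% interval 23.9 to 34.5, against 9.3% of all merged regions). They overlapped 56 in myotubes (18.9%, 14.6 to 23.8, against 5.31%) and 32 in siDRR myotubes (10.8%, 7.49 to 14.9, against 3.1%). The intervals are exact binomial ones over regions of the same libraries and cover counting error only.

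Width is not matched between these sets, since all merged regions had a median of 488 bp. In a window of 501 bp around each centre the shares were 28.6% in myoblasts and 18.2% in myotubes, against 9.24% and 5.26% of all merged regions. Where a gained region had an SMC3 peak, the median percentile of that peak was 65.2 and 62.4 in the myoblast libraries, 66.7 and 64.4 in myotubes and 67.4 and 63.5 in siDRR myotubes. Over all merged regions these medians ran from 52.0 to 54.9, and over regions called in all 6 ATAC lists from 37.8 to 48.9. In the myoblast libraries, regions gained only under siDRR had similar medians, at 64.3 and 64.1, and regions lost in both had 64.7 and 59.8. The lower quartiles at the gained regions ran from 32.4 to 45.4, so more than 25% of these SMC3 peaks were below the middle of their lists in each library.

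**Figure D3:**
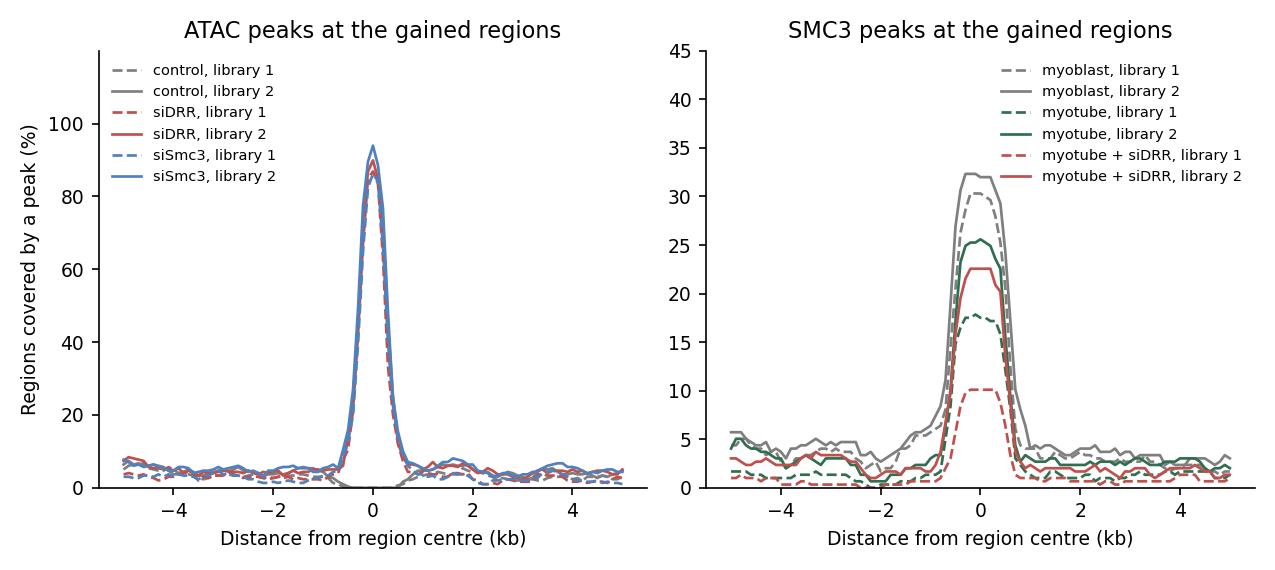
Percent of the 297 gained regions covered by an ATAC peak (left) or an SMC3 peak (right) at each distance from the region's centre in kb, 1 line per library. ATAC coverage at the centre is 86.2% to 93.9% in the knockdown libraries and 0 in the controls by the rule; SMC3 coverage at the centre is 10.1% to 32.0% and falls to 1.01% to 4.38% at 5 kb.

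SMC3 peaks were centred on the gained regions rather than lying beside them. At the 56 regions with SMC3 of both myotube libraries, the centres of the 2 were a median of 67.5 bp apart, and 48 lay within 250 bp. These 56 were chosen by overlap with SMC3 regions, of median width 1216 bp, which limits that distance. The share of gained regions covered by SMC3 in myotubes was 17.5% and 25.6% at the centre, and 1.52% and 3.03% at 5000 bp on either side. In siDRR myotubes it was 10.1% and 22.6% at the centre and 1.01% and 2.19% at 5000 bp. Such centring was not particular to the gained regions. At regions called in all 6 ATAC lists the myotube coverage was 9.84% and 34.7% at the centre and 1.63% and 3.37% at 5000 bp. At regions gained only under siDRR it was 10.7% and 13.4%, and 1.35% and 2.43%.

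Compared with regions gained in only 1 knockdown, the gained regions had SMC3 more often in each of the 6 SMC3 libraries. The myotube shares were 11.2% and 13.9% for regions gained only under siDRR and 3.95% and 5.22% for those gained only under siSmc3, against 18.9% and 26.9%. Regions lost in both knockdowns had 3.99% and 4.66%. With SMC3 of both myotube libraries, 10.8% (9.03 to 12.8) of the siDRR-only regions, 3.81% (3.03 to 4.71) of the siSmc3-only regions and 2.50% (1.69 to 3.54) of the lost regions were overlapped. These intervals cover counting error over regions of the same 2 SMC3 libraries and are not a test between the sets. The siDRR-only and siSmc3-only regions were also called in fewer knockdown lists than the gained regions, and the share rose with that number, as given below.

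Against regions called in all 6 ATAC lists the direction differed between SMC3 libraries. In library 1 of the 3 SMC3 groups the gained regions had the higher share, at 31.3% against 28.3% in myoblasts, 18.9% against 10.4% in myotubes and 10.8% against 5.66% in siDRR myotubes. In library 2 they had the lower share, at 32.7% against 42.2%, 26.9% against 36.2% and 23.9% against 30.3%. No direction relative to constantly accessible regions can therefore be given.

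**Figure D4:**
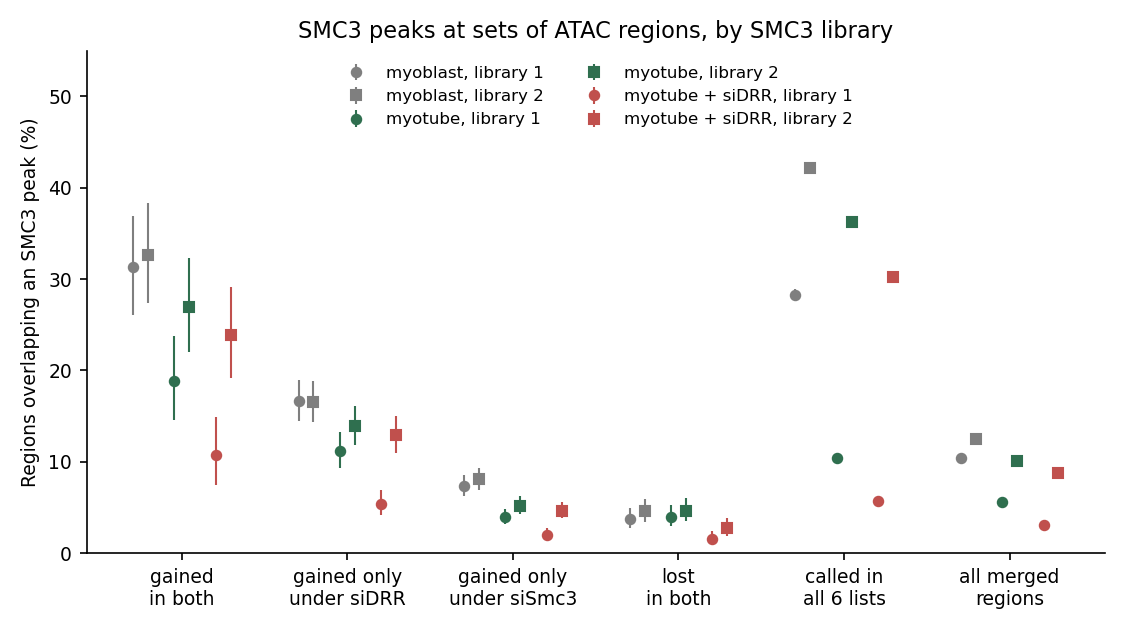
Share of ATAC regions overlapping an SMC3 peak, by set of regions and SMC3 library (circles library 1, squares library 2), with exact binomial 95% intervals. The regions gained in both knockdowns lie at 10.8% to 32.7%, above the sets gained in 1 knockdown, the lost set and all merged regions in the same library, and on either side of the regions called in all 6 lists.

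The SMC3 share also followed how many knockdown lists called a region. Among regions with no control call, SMC3 of both myotube libraries was at 2.26% of those called in 1 knockdown list, 9.56% of those in 2, 16.8% of those in 3 and 18.9% of the gained regions, which were called in 4. In myoblasts the same steps were 3.85%, 14.2%, 22.3% and 29.0%. In siDRR myotubes they were 1.22%, 5.55%, 10.8% and 10.8%. The counting intervals of the 3-list regions and the gained regions overlapped in myotubes (15.3 to 18.4 against 14.6 to 23.8), and no test was made. In myoblasts they met only at their ends (20.6 to 24.1 against 23.9 to 34.5). Regions in all 4 knockdown lists and control library 2 alone had a myotube share of 12.5% (11.4 to 13.6). Those with control library 1 alone had 16.9% (9.75 to 26.3). A step with the number of lists was present with control calls too: among regions called in both controls the myotube share rose from 2.50% with no knockdown list to 10.8% with 3 and was 9.84% with 4.

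**Figure D5:**
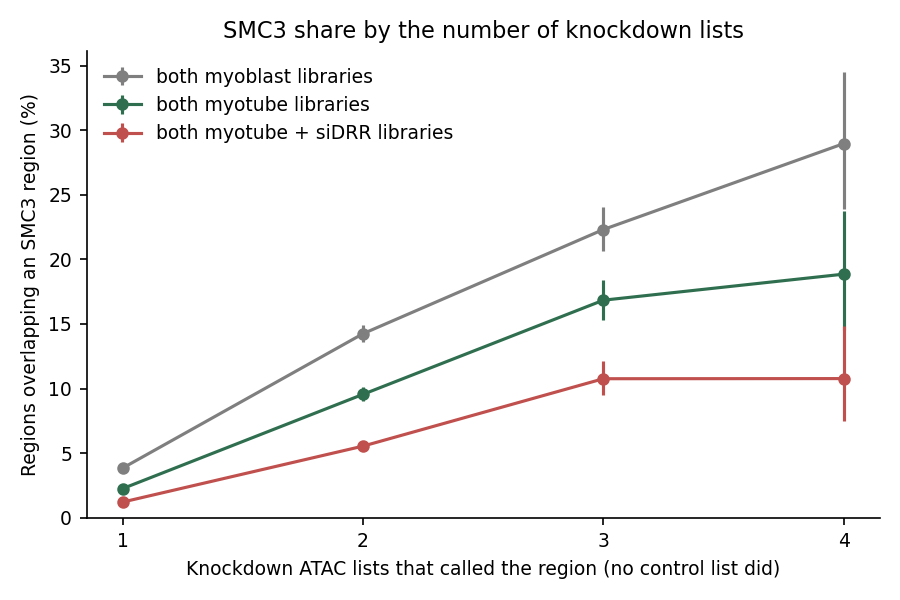
Share of ATAC regions with no control call that overlap an SMC3 region of both libraries, against the number of knockdown ATAC lists that called them, with exact binomial 95% intervals. The gained regions are the points at 4 lists (29.0%, 18.9% and 10.8%), and the points at 3 lists are 22.3%, 16.8% and 10.8%.

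At the gained regions SMC3 in myotubes was nearly always called in myoblasts too. Of the 55 regions with peaks in both myotube libraries, 54 (98.2%) had peaks in both myoblast libraries, against 93.8% over all merged regions. Of the 56 regions with SMC3 of both myotube libraries, 55 also had SMC3 of both myoblast libraries. No gained region had a peak in both myotube libraries and in neither myoblast library, which allows a share of up to 1.01% (3 counts of 297), and over all merged regions the share was 0.127%. SMC3 was called in all 6 libraries at 31 gained regions (10.4%, against 2.65% of all merged regions) and in none at 190 (64.0%, against 83.7%). The pattern of both myoblast libraries and nothing later was found at 11 gained regions (3.70%, 1.86 to 6.53, against 1.36%). Regions called in all 6 ATAC lists had this last pattern about as often, at 3.75%. They had SMC3 in all 6 libraries at 4.33% and in none at 42.2%.

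Per library, 32.0% ± 0.952 (SD, n = 2) of the gained regions had SMC3 in myoblasts and 22.9% ± 5.71 (SD, n = 2) in myotubes. The difference of -9.09 percentage points had an exact permutation p = 0.333, two-sided, the smallest that 2 against 2 libraries allow. Divided by the share over all merged regions in the same library, the values were 2.80 ± 0.269 in myoblasts and 3.03 ± 0.504 in myotubes (n = 2 each, exact permutation p = 0.667). The myotube lists were also shorter than the myoblast lists. With the SMC3 lists cut to equal length the difference was -2.19 points (exact permutation p = 0.333). Whether list length accounts for the lower raw share in myotubes was not tested. Of the 85 gained regions with peaks in both myoblast libraries, 54 (63.5%, against 53.5% over all merged regions) had peaks in both myotube libraries and 12 (14.1%, against 19.1%) had none.

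After siDRR the SMC3 share of the gained regions was 17.3% ± 9.29 (SD, n = 2), against 22.9% ± 5.71 (SD, n = 2) in myotubes. The difference was -5.56 percentage points (exact permutation p = 0.667, two-sided), smaller than the spread between the libraries, and -0.505 points with SMC3 lists of equal length (exact permutation p = 0.667). As a multiple of the share over all merged regions it was 3.10 ± 0.518 after siDRR and 3.03 ± 0.504 without (n = 2 each, exact permutation p = 0.667). Of the 55 gained regions with peaks in both myotube libraries, 31 (56.4%, against 52.3% over all merged regions) had peaks in both siDRR libraries, 20 in 1 of them and 4 (7.27%, against 5.94%) in neither. The siDRR list of library 1, with 8384 peaks, was the shortest of the 6. SMC3 ChIP after siSmc3 was not analysed here, so SMC3 at the gained regions is known only for the DRR knockdown.

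The 4 regions whose myotube SMC3 peaks were called in neither siDRR library are named here after their values were seen. They were chr18:35772090-35772654, chr5:49481238-49481783, chr3:88244233-88245267 and chr5:110031433-110032035. Their peaks in the myotube libraries were weak, at percentiles of 38.7 and 13.2, 7.41 and 36.8, 11.6 and 47.2, and 3.42 and 37.4. All 8 values were below the middle of their lists. The region chr5:49481238-49481783 also stood far from control accessibility, with its nearest control peaks at 194287 and 219997 bp.

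The gained regions with SMC3 of both myotube libraries were led in ATAC rank by chr13:71595780-71596734, with percentiles of 68.1 and 73.5 under siDRR and 66.0 and 58.2 under siSmc3. Its nearest control peaks lay 66365 and 17961 bp away. SMC3 there ranked at 60.0 and 75.8 in myoblasts and at 90.2 and 87.6 in myotubes, and after siDRR it was called in library 2 only, at 82.5. The region chr1:34923818-34924570 had SMC3 at 67.4 and 51.1 in myoblasts and 79.2 and 80.3 in myotubes, and likewise in siDRR library 2 only, at 64.1. At chr13:38156693-38157279 SMC3 was again missing from siDRR library 1 alone. At these 3 regions the siDRR libraries differed from each other.

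The other 7 of the 10 highest in this class had SMC3 in all 6 libraries. They were chr7:19824617-19825282, chr2:59360038-59360748, chr1:183475451-183476040, chr8:122210568-122211953, chr15:57339663-57340660, chr4:105901056-105901668 and chr14:9178849-9179673. At chr14:9178849-9179673 the SMC3 percentiles were 76.8 and 87.2 in myoblasts, 91.8 and 98.1 in myotubes, and 74.2 and 91.0 after siDRR, so the myotube and siDRR values overlapped. At chr1:183475451-183476040 they were 93.3 and 95.9, 75.8 and 93.8, and 64.2 and 88.9 in the same order. That region and chr8:122210568-122211953 had a peak of control library 2 close by, at 479 and 129 bp.

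Among the 31 gained regions with SMC3 in all 6 libraries, the highest mean SMC3 rank was at chr11:100142879-100144328, chosen after its values were seen. SMC3 percentiles there were 99.997 and 99.958 in myoblasts, 99.0 and 99.9 in myotubes, and 98.3 and 99.8 after siDRR. Its ATAC peaks were in the lower part of the lists, at 26.6 and 49.0 under siDRR and 40.2 and 49.1 under siSmc3, and the nearest control peaks were 5765 and 4281 bp away.

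SMC3 and ATAC strength did not go together in a simple way among the gained regions. The median mean ATAC percentile was 47.1 at the 56 regions with SMC3 of both myotube libraries and 45.6 at the 241 without. Among the 99 highest by ATAC rank 15 had such SMC3, among the 99 in the middle 28, and among the 99 lowest 13. In myoblasts these counts were 20, 39 and 27. None of the 12 highest regions had SMC3 of both myotube libraries. Regions with SMC3 were narrower, with a median of 686 bp against 838 bp. The mean siSmc3 rank exceeded the mean siDRR rank at 64.3% of regions with SMC3 and at 65.1% of those without. These values are descriptions without a test.

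DRR ChIRP signal was infrequent at the gained regions. A ChIRP region, taken as 250 bp on either side of a deposited summit, of at least 1 of the 4 ChIRP libraries overlapped 14 gained regions (4.71%, 2.60 to 7.78). All merged ATAC regions gave 5.05%, so the share was at the background, and regions called in all 6 ATAC lists gave 11.5%. Pool 1 accounted for 1 gained region in library 1 and 10 in library 2, and pool 2 for 4 and 1. No gained region had ChIRP regions of both pools, which again allows a share of up to 1.01%, and 0.112% of all merged regions had them. Library 2 of pool 1 held 68812 summits against 3776 in library 1, so most of the overlap came from the longest list; without it 1.68% of the gained regions had a ChIRP region.

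Within a pool, 1 gained region had both libraries of pool 1 and 1 had both of pool 2. The first, chr15:57339663-57340660, had ChIRP percentiles of 12.5 and 96.8. Its ATAC percentiles were 67.4 and 67.7 under siDRR and 35.9 and 54.5 under siSmc3, and its SMC3 percentiles were 70.6 and 82.9 in myoblasts, 90.1 and 88.2 in myotubes, and 70.6 and 63.2 after siDRR. Both siDRR values for SMC3 were below both myotube values there, in a comparison of 2 against 2 libraries picked out among 297 regions. The second, chr17:10188217-10188743, was noted after its values were seen, with ChIRP percentiles of 3.71 and 47.7 and no SMC3 peak. Of the 56 gained regions with SMC3 of both myotube libraries, 5 (8.93%, 2.96 to 19.6) had a ChIRP region of any library, against 7.34% of all merged regions with such SMC3.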

How the data were processed

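The authors deposited 1 peak list per library (ATAC-seq, SMC3 ChIP-seq) or summit list (DRR ChIRP-seq), and not pooled lists. Per the submitters' processing notes the build was mm9 and the peak callers MACS 1.4.2 and MACS2; they also name the aligners Bowtie2 2.2.4 and Bowtie 1.1.1, cutadapt 1.12, and bcl2fastq 2.17.1 with CASAVA 1.8.2. The sources used here do not give which data each tool served, the read filters, any Tn5 shift, the control used or the calling thresholds. The deposited score of each peak is the authors' peak caller's score on a scale that is not stated, so it was used only as a rank within its list. Without read counts, depth is unknown.

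Positions are 1-based. Overlap means at least 1 bp, and an SMC3 region of both libraries is a merged region with a peak from each. Intervals are Clopper-Pearson 95% intervals. Tests over libraries were exact permutation tests, and scripts (Python 3.11.15, numpy 2.4.6, scipy 1.17.1) were tested on simulated data. The members and lists were chosen with earlier results of these data known. Regions named were the 12 highest and 3 lowest by mean percentile over the 4 knockdown lists, the 10 highest with SMC3 of both myotube libraries, and any with ChIRP of both pools; others are marked as chosen after their values were seen. Alternatives changed the list lengths, the overlap, the libraries and the SMC3 and ChIRP definitions.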

Additional observations from a re-analysis of the deposited data

How the results depend on the processing

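The count of 297 gained regions moved by more than 1.5 times when any ATAC library except control library 1 was left out: it was 383 without control library 1, 3930 without control library 2, 1322 and 480 without siDRR library 1 or 2, and 1221 and 461 without siSmc3 library 1 or 2, a range of 383 to 3930 that follows from asking for fewer calls. With the better-scoring 50% of each ATAC list the count was 240, but 24 of the original regions (8.08%) were among them, and the other 216 all had a control peak in the full lists. With ATAC lists cut to 58137 peaks each it was 289, with 91 of the original regions (30.6%). Cut lists hold only peaks of the full lists. A region new after either cut can thus miss the full rule only through a control peak. The 91 had SMC3 of both myotube libraries at 22.0% (14.0 to 31.9) and the 24 at 16.7% (4.74 to 37.4). The 198 regions new at equal length, all with a control peak in the full lists, had it at 20.7% (15.3 to 27.0). The 216 had it at 19.4% (14.4 to 25.4). Regions that were not gained in the full lists thus had similar shares. Requiring 100 bp of overlap gave 290, and no control peak within 500 bp gave 256. Of the 25 regions named by rule, 13 were members under all 11 alternatives of the count, 14 with the better-scoring 50% and 22 at equal length. Leaving out a library asks for fewer calls, so nearly all members (97.3% to 100%) stayed by construction.

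The myotube SMC3 share of 18.9% became 27.3% with peaks of either library and 10.8% with the better-scoring 50% of each SMC3 list, and ranged from 13.1% (without control library 2) to 26.9% (without SMC3 myotube library 1) with a library left out. The myoblast share of 29.0% became 35.4% and 19.5% under the same choices and ranged from 21.9% (without siDRR library 1; 23.4% without siSmc3 library 2) to 32.7%. The ChIRP share of 4.71% was 0 when both pools were required. With a library left out it ranged from 1.68% (without pool 1 library 2) to 7.10% (without control library 2). It was 7.41% with summits widened by 500 bp and 7.5% with the better-scoring 50% of each ATAC list. Shares over all merged regions were not taken with widened summits, with peaks of either SMC3 library or with better-scoring lists. These values therefore cannot be set against the backgrounds given above. The 501 bp window was added after the data were seen. Taking the replicate numbers as pairs (a replicate block), the differences were -9.09 points for myoblast against myotube and -5.56 points for myotube against siDRR myotube, each with an exact sign-flip permutation p = 0.5, the smallest 2 pairs allow; the labels do not say that a number marks a shared batch, and the block changed no call. Leaving out a library gave -14.0 to -5.72 and -8.08 to -3.03 points, and SMC3 lists of equal length gave -2.19 and -0.505 points. Neither difference passed a test under any alternative, and no test of 2 against 2 libraries could. Promoter shares, GC content and motif shares were not run, since no genome or gene models of the mm9 build were used here.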

Other observations

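At the 31 gained regions with SMC3 in all 6 SMC3 libraries, the SMC3 percentile averaged over the 6 lists had a median of 77.2 and ran from 46.2 to 99.5. Over the 6131 merged regions with SMC3 in all 6 libraries the median was 75.9. Averaged over the 2 myoblast lists alone, the medians were 84.6 at the 31 gained regions and 85.9 at the 6131. The 11 gained regions with SMC3 in both myoblast libraries and in no myotube library of either kind had a median myoblast percentile of 40.6 and a range from 18.7 to 63.5, against a median of 30.0 over all 3151 merged regions with that pattern. They included the strongest gained region, on chromosome 4, and 1 other of the 12 highest. The nearest control peak of a gained region came from control library 2 at 192 regions and from control library 1 at 105, with median distances of 4834 and 7687 bp. Control list 2 was also the longer, with 99548 peaks against 58138. Whether list length accounts for the split was not tested.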
